A study of Mus musculus with 8 samples.

Results

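The gamma crystallins were read here in mouse retina, on 8 Affymetrix expression arrays with 1 retina sample each. The family was taken as 8 genes, Cryga, Crygb, Crygc, Crygd, Cryge, Crygf, Crygn and Crygs, and a probe set (the group of short probes that reads 1 transcript) counted as theirs when the platform annotation gave it exactly 1 of these symbols. That rule found 6 probe sets of the 45037 that are not array controls, 1 each for Cryga (1422652_at), Crygb (1427264_at), Crygd (1419141_at), Crygf (1429948_x_at), Crygn (1425286_at) and Crygs (1420453_at). Crygc and Cryge had no probe set of their own, and 2 further probe sets list a member together with another gene. The 4 control samples were fresh dissected retinas, labelled with a time of 0 d. The other 4 came from injected retinas, whose treatment type is given as compound-based. No label states the strain, age, sex, compound, dose, route or interval of either group, and there was no sham-injected group. They do not say whether samples came from separate animals, so each p-value reflects the spread among these samples only, and that spread may be technical.

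Crystallins are the water-soluble proteins that fill the fibre cells of the lens and give it its refractive index. Beta and gamma crystallins share a fold built of Greek key motifs, and gamma crystallins are monomers made mainly by differentiating fibre cells. Cryga to Crygf are recent copies of each other, Crygs is a more distant member that is also made in the older lens, and Crygn lies between the beta and gamma branches. Members of the family have also been detected in retina, where crystallin signal is known to vary widely between samples. A retina is dissected from beside the lens, so the other lens genes are given below next to the crystallins.

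In the RefSeq gene order of GRCm38.p6, 6 of the 8 genes lie on chromosome 1. Cryge, Crygd, Crygc, Crygb and Cryga follow each other with no other protein-coding gene between them, Crygf lies farther along between Pth2r and Map2, Crygn is on chromosome 5 and Crygs on chromosome 16. All 8 were matched in the RefSeq promoter table of that build. The 100 bases before each annotated start are printed 5′ to 3′ on the strand of the gene, because they show how alike these copies are and which members stand apart. Capitals mark TATATA or its variant TATAAA, which resemble a TATA box, and also TTTGTG, where they occur.
Cryga: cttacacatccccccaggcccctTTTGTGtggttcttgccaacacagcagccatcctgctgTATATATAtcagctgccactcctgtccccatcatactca
Crygb: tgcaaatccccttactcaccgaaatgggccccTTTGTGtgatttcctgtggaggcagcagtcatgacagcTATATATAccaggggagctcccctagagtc
Crygc: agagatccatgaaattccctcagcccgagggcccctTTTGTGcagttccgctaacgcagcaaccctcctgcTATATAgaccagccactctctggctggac
Crygd: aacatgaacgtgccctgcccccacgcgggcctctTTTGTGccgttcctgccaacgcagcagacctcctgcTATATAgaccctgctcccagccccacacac
Cryge: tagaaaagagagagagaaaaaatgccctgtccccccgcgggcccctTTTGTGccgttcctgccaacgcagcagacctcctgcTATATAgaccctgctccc
Crygf: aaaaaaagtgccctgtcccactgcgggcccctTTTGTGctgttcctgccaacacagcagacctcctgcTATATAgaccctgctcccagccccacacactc
Crygn: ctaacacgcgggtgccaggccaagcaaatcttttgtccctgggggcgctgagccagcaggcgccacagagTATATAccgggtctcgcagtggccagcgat
Crygs: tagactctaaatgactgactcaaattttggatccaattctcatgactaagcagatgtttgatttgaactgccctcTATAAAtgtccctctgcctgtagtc
These windows lie at chr1:65103364-65103463 (minus strand), chr1:65082291-65082390 (minus strand), chr1:65073533-65073632 (minus strand), chr1:65063441-65063540 (minus strand), chr1:65051164-65051263 (minus strand), chr1:65926422-65926521 (plus strand), chr5:24757849-24757948 (minus strand) and chr16:22811411-22811510 (minus strand).

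Crygd, Cryge and Crygf share an unbroken run of 55 bases over the TATA-like element, which no other of the 32851 promoters in the table holds on its own strand. Over the whole 300 bases, from 250 before to 50 after the start, the promoters of Cryge and Crygf were 83.1% identical in a global alignment, Crygd and Crygf 70.7% and Crygd and Cryge 68.4%. Every other pair of the 8 was at 59.9% or less, and pairs with Crygs at 50.4% or less. TATATA occurred in the last 100 bases of 7 of the 8 members against 2.19% of all promoters, and TATAAA in that of Crygs, against 5.56%. TTTGTG occurred there in all 6 chromosome 1 genes and in neither Crygn nor Crygs, against 6.03% of all promoters, with both strands searched. TGCTGAC, a part of the recognition element of Maf, a transcription factor of lens fibres, was found in 1 member, starting 215 bases before the start of Cryga, against 4.67% of all 300-base promoters. TATATA and TTTGTG were picked after these sequences were seen, and a match of letters is no evidence of a bound site.

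The deposited values are linear intensities. They were brought to a common distribution by quantile normalisation and are given below as log2(intensity + 16), a scale that understates the change of dim genes. The 40th percentile of mean signal, a log2 value of 8.50 or about 345 intensity units, is used as a mark of dim signal. Over all 8 arrays the mean of Crygb, Crygd, Crygf and Crygs lay above that mark and the means of Cryga (7.38) and Crygn (6.29) below it. In the pairwise correlations of arrays over all probe sets, injected replicate 3 stood apart, at 0.87 to 0.88 with the other arrays against 0.90 to 0.94 among the rest. Rod genes, which check the labelled tissue, were read above the mark of dim signal for 11 of 12 measured, with a summed intensity of 296167 to 332771 in control and 225038 to 330806 in injected samples.

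Crygs had the widest spread of the family. In control replicates 1 to 4 its log2 values were 10.57, 5.30, 12.84 and 8.29, and in injected replicates 1 to 4 they were 9.95, 15.14, 12.22 and 11.55. On the deposited scale that is 21.5 in the lowest control sample, 7380 in the highest control sample and 38554.5 in injected replicate 2. The groups overlapped, since control replicate 3 was above 3 of the 4 injected samples. The means were 9.25 ± 3.22 and 12.21 ± 2.17 (SD, n = 4 each), a log2 difference of 2.97 ± 1.65 (SE; 95% interval -0.82 to 6.75; limma, adjusted p = 0.829). An exact two-sided permutation test of the 2 groups of 4 gave p = 0.2. The range of 7.53 within the control group alone was larger than the difference between groups.

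Crygf, a fibre-cell gamma crystallin, was the member whose groups did not overlap. Its log2 values were 9.03, 7.87, 9.55 and 8.71 in control and 10.15, 12.42, 10.83 and 10.25 in injected replicates 1 to 4. All 4 injected samples lay above all 4 controls, as they did at 2.18% of all probe sets. The means were 8.79 ± 0.70 and 10.91 ± 1.05 (SD, n = 4 each), a log2 difference of 2.12 ± 0.56 (SE; 95% interval 0.83 to 3.41). The limma test gave an unadjusted p of 0.00502 and an adjusted p of 0.642 over all probe sets, so Crygf did not pass the threshold of 0.05. The exact two-sided permutation p was 0.0286, the smallest that 4 against 4 can give. Over all alternatives of the processing the adjusted p of Crygf ran from 0.344 to 0.91 and its difference from 1.30 to 2.37. Crygf was read by a probe set of the x_at kind, in which some probes also fit other transcripts. Other gamma crystallin transcripts may contribute to this signal, which was not tested. Promoter likeness does not show which transcripts the probes fit. Cryge has no probe set of its own here.

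Crygd, another abundant gamma crystallin of fibre cells, had 2 low controls. The 8 log2 values were 8.60, 6.19, 9.23 and 5.75 in control and 9.09, 12.32, 9.75 and 8.43 in injected replicates 1 to 4. Control replicates 2 and 4 were far below the mark of dim signal, while control replicates 1 and 3 lay among the injected samples. The means were 7.44 ± 1.73 and 9.90 ± 1.70 (SD, n = 4 each), a log2 difference of 2.46 ± 1.04 (SE; 95% interval 0.07 to 4.84; limma, adjusted p = 0.821). The exact two-sided permutation p was 0.143. The spread of 3.48 within the control group exceeded this difference.

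Crygb, the neighbour of Cryga on chromosome 1, ranked the 8 arrays as Crygs did, except that control replicate 1 and injected replicate 4 changed places. Its log2 values were 9.53, 7.01, 10.72 and 8.69 in control and 8.82, 12.90, 9.80 and 9.31 in injected replicates 1 to 4. Only injected replicate 2 lay above the highest control sample. The means were 8.99 ± 1.56 and 10.21 ± 1.84 (SD, n = 4 each), a log2 difference of 1.22 ± 1.04 (SE; 95% interval -1.15 to 3.59; limma, adjusted p = 0.851; exact two-sided permutation p = 0.4).

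Cryga was dim on 5 of the 8 arrays. The samples read 8.78, 6.28, 6.45 and 6.67 (log2) in control and 6.34, 9.19, 6.60 and 8.76 in injected replicates 1 to 4. Signal above the mark of 8.50 appeared in control replicate 1 and injected replicates 2 and 4, so it was present in both groups. The log2 difference was 0.68 ± 0.81 (SE; 95% interval -1.18 to 2.54; limma, adjusted p = 0.877; exact two-sided permutation p = 0.486).

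Crygn, the divergent member, was above the mark of dim signal on a single array. Log2 values of 5.36, 8.92, 5.75 and 6.05 in control and 6.12, 7.51, 4.80 and 5.85 in injected replicates 1 to 4 were measured. Control replicate 2 was its highest sample, as it was for 12.4% of all probe sets. The log2 difference was -0.45 ± 0.85 (SE; 95% interval -2.41 to 1.50; limma, adjusted p = 0.926; exact two-sided permutation p = 0.686). Without control replicate 2 it was 0.34, so the sign of the difference depends on that sample.

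**Figure D1:**
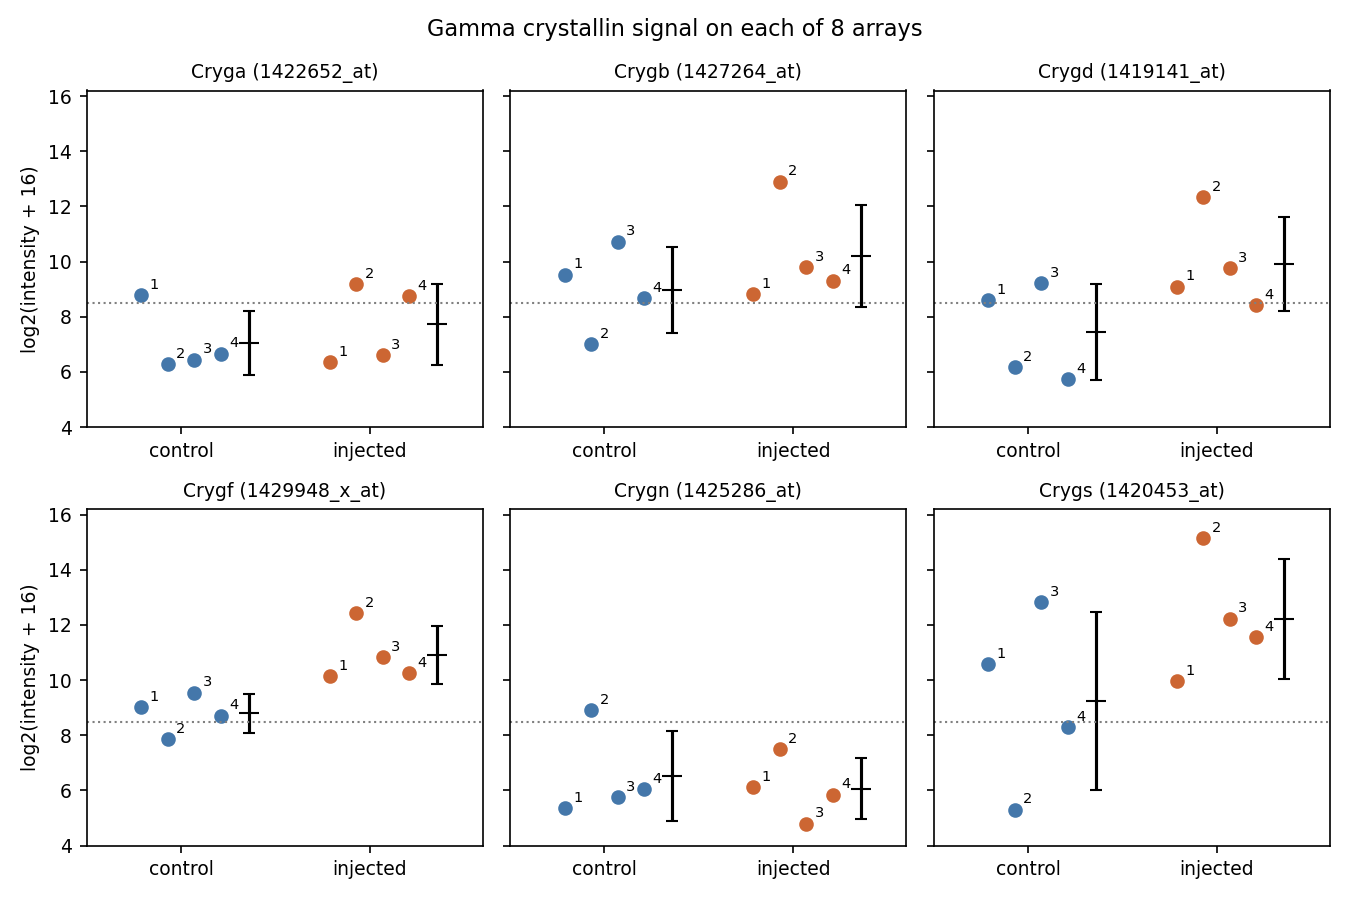
Signal of the 6 gamma crystallin probe sets on each array, as log2(intensity + 16) on the vertical axis; points are single samples numbered by replicate, black bars are the mean ± SD of 4 samples, and the dotted line is the mark of dim signal at 8.50. Crygf is the panel whose 4 injected points all lie above its 4 control points, and injected replicate 2 is the highest point for every gene but Crygn.

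As a family, 5 of the 6 genes had a positive difference and 1 a negative one, with a median log2 difference of 1.67. Over all 18193 genes, 50.2% were positive and the median was 0.00. A difference of at least 1 log2 unit was found for 4 of the 6, against 4.70% of all probe sets. At an unadjusted p under 0.05 limma gave 2 of the 6, Crygf and Crygd, against 6.08% of all probe sets and 3.32% in the higher direction. At an adjusted p under 0.05 it gave 0 of the 6. The same test gave 0% of all 45037 probe sets in either direction (0 higher, 0 lower; 2736 at an unadjusted p under 0.05), and the smallest adjusted p was 0.0536. In 5 of the 6 genes the range within the control group was wider than the difference between groups, and Crygf was the exception (1.67 against 2.12). In bulk tissue, more cells of a type and more RNA per cell cannot be told apart.

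Most of the 6 genes, Crygn apart, had their highest signal on the same array. Injected replicate 2 was the highest of the 8 samples for 5 of the 6, against 10.9% of all probe sets. For Crygb, Crygd and Crygs it was at least 2 log2 units above the next sample (2.18, 2.57 and 2.30), which was true of 0.0600% of all probe sets, or 27. At the other end, control replicate 2 was the lowest sample for Cryga, Crygb, Crygf and Crygs, and control replicate 4 for Crygd. Summed over the 6 probe sets, intensity was 900 to 10467 in control samples and 3093 to 57195 in injected samples. The family mean stood at 0.64, -1.08, 1.08 and -0.65 from the control mean in control replicates 1 to 4, and at 0.41, 3.57, 0.99 and 1.02 in injected replicates 1 to 4. Control replicate 3 was thus above all injected samples but replicate 2.

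Leaving out single samples moved the family median (0.97 to 2.08) more than the scalings and pseudocounts tried (1.56 to 1.84). Without injected replicate 2 the median over the 6 genes was 0.97, Crygs was at 1.99, Crygd at 1.65, Crygf at 1.61, Crygb at 0.32 and Cryga at 0.19. Without control replicate 2 the median was 1.10, Crygs was at 1.65 and Crygb at 0.56. Without both, an alternative added once these values were known, 3 of the 6 genes were positive and 3 negative, and the median was 0.30. Crygf was then at 1.30 ± 0.34 and Crygd at 1.23 ± 0.93 (SE; limma, adjusted p = 0.7 and 0.876). Crygs was then at 0.67 ± 1.18 (SE; limma, adjusted p = 0.923), Crygb at -0.33 and Cryga at -0.06. Without injected replicate 3, the array that stood apart over all probe sets, the median was 1.78.

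**Figure D2:**
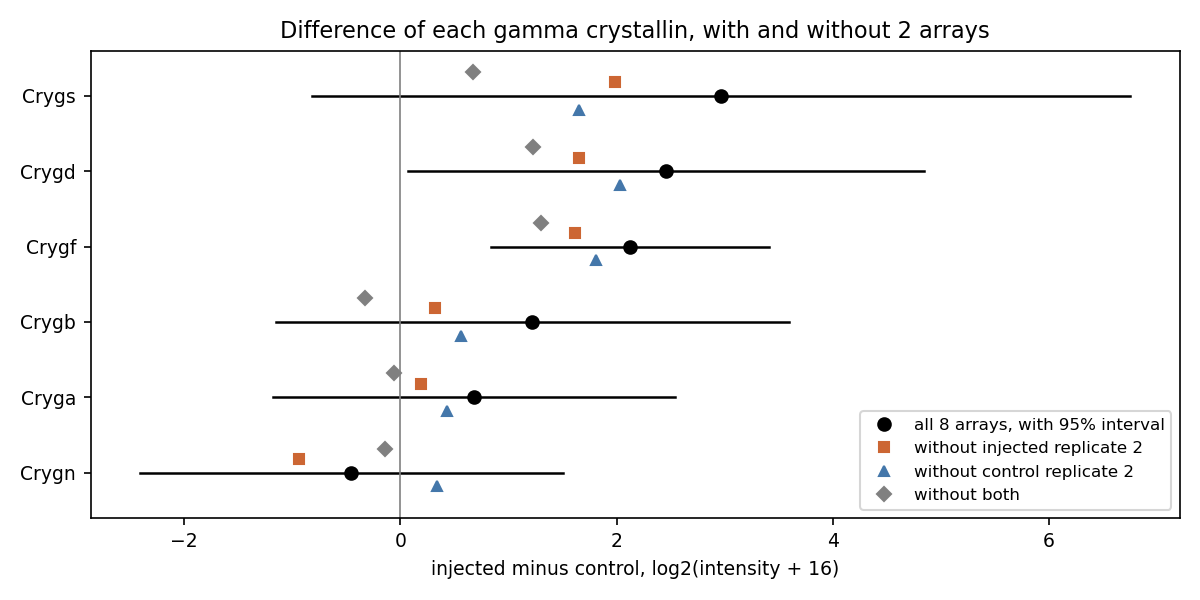
Log2 difference of each gamma crystallin, injected minus control, with its 95% interval from limma (black), and the difference without injected replicate 2 (squares), without control replicate 2 (triangles) or without both (diamonds). Crygf and Crygd stay at 1.23 or above in all 4 settings shown, while Crygb and Cryga pass below 0 without both samples.

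Crygb, Crygd, Crygf and Crygs varied together over the 8 arrays, Cryga correlated with them more weakly, and Crygn did not follow them. Pearson's r was 0.85 to 0.95 for the 6 pairs among those 4 genes, with exact permutation p from 0.00112 to 0.012, adjusted to 0.0141 to 0.03 over the 15 pairs of the family. The closest pair was Crygb and Crygs (r = 0.95, Spearman's rho = 0.98, exact permutation p = 0.000397 for rho, adjusted p = 0.00595). For the other 5 of these pairs rho was 0.74 to 0.88 and its exact permutation p adjusted to 0.0536 to 0.115. Each pair was also read without the 2 arrays farthest from the median of its first-named gene, so the arrays left out differed between pairs. Without injected replicate 2 and control replicate 2, r was 0.88 for Crygb and Crygs, and 0.59 or 0.60 for Crygf with Crygs and Crygb with Crygd. Without injected replicate 2 and control replicate 4, r was 0.92 for Crygd and Crygs and 0.87 for Crygd and Crygf. Those last values keep control replicate 2 and are not like for like with the others. Crygb with Crygf dropped to 0.18 without injected replicate 2 and control replicate 2, and so rested on those arrays. All pairs share the same 8 RNA samples, which pool both groups, and with 4 arrays a group no correlation within a group was computed.

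Cryga correlated with the others at 0.50 to 0.56 apart from Crygn, with exact permutation p of 0.154 or more (adjusted p 0.331 or more). Crygn had r from -0.43 to -0.05 with the other 5 genes (exact permutation p of 0.288 or more, adjusted p 0.392 or more). Without injected replicate 2 these 5 values ran from -0.87 to -0.35. They were then -0.85 with Crygb, -0.76 with Crygf and -0.87 with Crygs. Control replicate 2, the highest array of Crygn, weighed on these values. With it left out as well, r was -0.45 with Crygb, -0.43 with Crygf and -0.53 with Crygs. For Cryga and Crygd a different control array was left out, so control replicate 2 stayed in. Cryga and Crygn were below the mark of dim signal on most arrays.

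**Figure D3:**
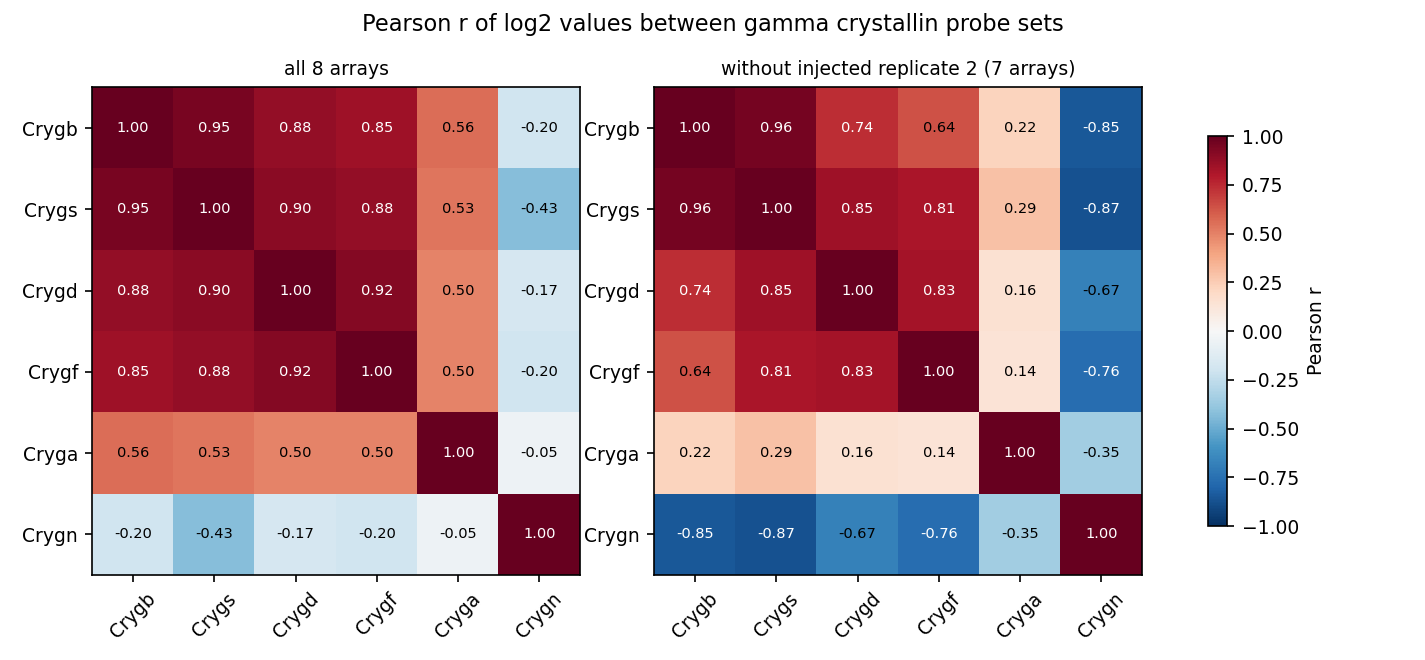
Pearson correlation of log2 values between the 6 gamma crystallin probe sets over all 8 arrays (left) and over 7 arrays without injected replicate 2 (right); red is positive, blue negative, and the number is r. The block of Crygb, Crygs, Crygd and Crygf has r of 0.85 or more on the left and 0.64 or more on the right, and Crygn is negative with every other gene in both panels. Both panels keep control replicate 2, the highest array of Crygn.

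Alpha and beta crystallins, the other main lens proteins, were positive for 8 of 8 measured genes with a median log2 difference of 0.92 (unadjusted p under 0.05 for 0 of the 8). Their list mean stood at 0.12, -0.90, 1.46 and -0.69 in control replicates 1 to 4 and at -0.08, 3.81, 1.78 and 0.46 in injected replicates 1 to 4. As for the gamma crystallins, injected replicate 2 had the highest mean of the 8 and control replicate 2 the lowest. Without injected replicate 2, 5 of the 8 genes were positive and 3 negative, with a median of 0.44. Cryab was read at its brightest probe set, with a difference of 0.22 ± 0.39 (SE). Its other probe sets gave -0.57 (1416455_a_at) and 0.45 (1435837_at). With the mean over all probe sets of each gene, 8 of 8 were positive. Among all 12882 genes above the mark of dim signal that are no member, the 10 with profiles most like the mean gamma crystallin profile over the 8 arrays were taken. They were Crybb2 (r = 0.96), Bub3, Shroom3, Cryba1 (r = 0.89), Slc38a6, Dmrta2, Hps4, Dnmt3b, Zfp322a and Tmed2 (r = 0.85). All 10 were highest on injected replicate 2, and since they were picked by r no p is given. The mark was applied to the mean over all 8 arrays, and Crybb2, with a control mean of 8.07, was above it through its injected samples. Crybb2 differed by 3.08 ± 1.40 and Cryba1 by 3.47 ± 1.76 (SE), against 0.08 to 0.56 for the other 8 genes.

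Lens genes other than crystallins were highest on the same array as the family. Of 14 such genes 11 were measured, 3 of them above the mark of dim signal on average, and 9 of the 11 differences were positive with a median of 0.45. Their list mean was -0.32, -0.01, 0.30 and 0.03 in control replicates 1 to 4 and 0.16, 2.04, 0.79 and 0.00 in injected replicates 1 to 4. Injected replicate 2 was the highest array for 7 of the 11. On that array Mip, the water channel of lens fibres, had a log2 value of 12.10 against 7.82 ± 1.0 in control (SD, n = 4), and Gja3, a connexin of fibre gap junctions, 11.14 against 5.70 ± 0.77. Mip and Gja3 had the largest gaps of the list to the next array, at 2.53 and 2.81. Mip was also lowest of the 8 samples on injected replicate 1, at 4.37. Bfsp1, Foxe3, Birc7 and Caprin2 did not peak on injected replicate 2. Without injected replicate 2, 5 of the 11 genes were positive and 6 negative, with a median of -0.14. Summed intensity of the list was 15540 to 21275 in control and 14544 to 32450 in injected samples. Most of it was Tdrd7, with 14535 of 17088 in control replicate 1 and 19783 of 32450 in injected replicate 2. The sum thus says little about the dimmer lens genes. No value of the list was 0, but the lowest, 4.39 intensity units for Mip in injected replicate 1, was far below the mark of dim signal. Detection calls were not used, so presence of a transcript is not shown. The part of these lens genes in the crystallin signal was not tested.

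Bfsp1, a filament protein of lens fibres, was the 1 gene of the 11 measured in this list whose groups did not overlap. All 4 injected samples lay above all 4 controls at 2.18% of all probe sets. The normalised log2 values of Bfsp1 were 5.21, 6.48, 6.51 and 5.67 in control and 7.97, 6.58, 8.14 and 7.88 in injected replicates 1 to 4. All were below the mark of dim signal. The difference was 1.68 ± 0.44 (SE; limma, adjusted p = 0.639).

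Pigment-cell genes had 14 of 16 negative differences, with a median of -0.84, and 3 of the 16 had an unadjusted p under 0.05 (limma; 6.08% of all probe sets). Without control replicate 2, an alternative chosen after seeing the data, 10 of 16 were negative and the median was -0.33. Control replicate 2, lowest for 4 gamma crystallins and highest for Crygn, was the highest array for 12 of the 16, with their list mean 1.66 above the control mean. Control replicate 3, the control with the most Crygs, had the lowest pigment-cell mean of the controls, at -1.04. Control replicate 4 was low in both lists, at -0.77 for pigment-cell genes and -0.65 for gamma crystallins. In injected samples the pigment-cell mean ran from -1.57 to -0.19. It was lowest in injected replicate 4, where the gamma crystallin mean was 1.02. Summed pigment-cell intensity was 99167 to 379587 in control and 57425 to 148459 in injected samples, and the list's lowest single value was 16.3. Matrix and fibroblast genes were highest on control replicate 2 as well, for 7 of 11, at 1.27 above the control mean. The part of these genes in the crystallin values was not tested.

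**Figure D4:**
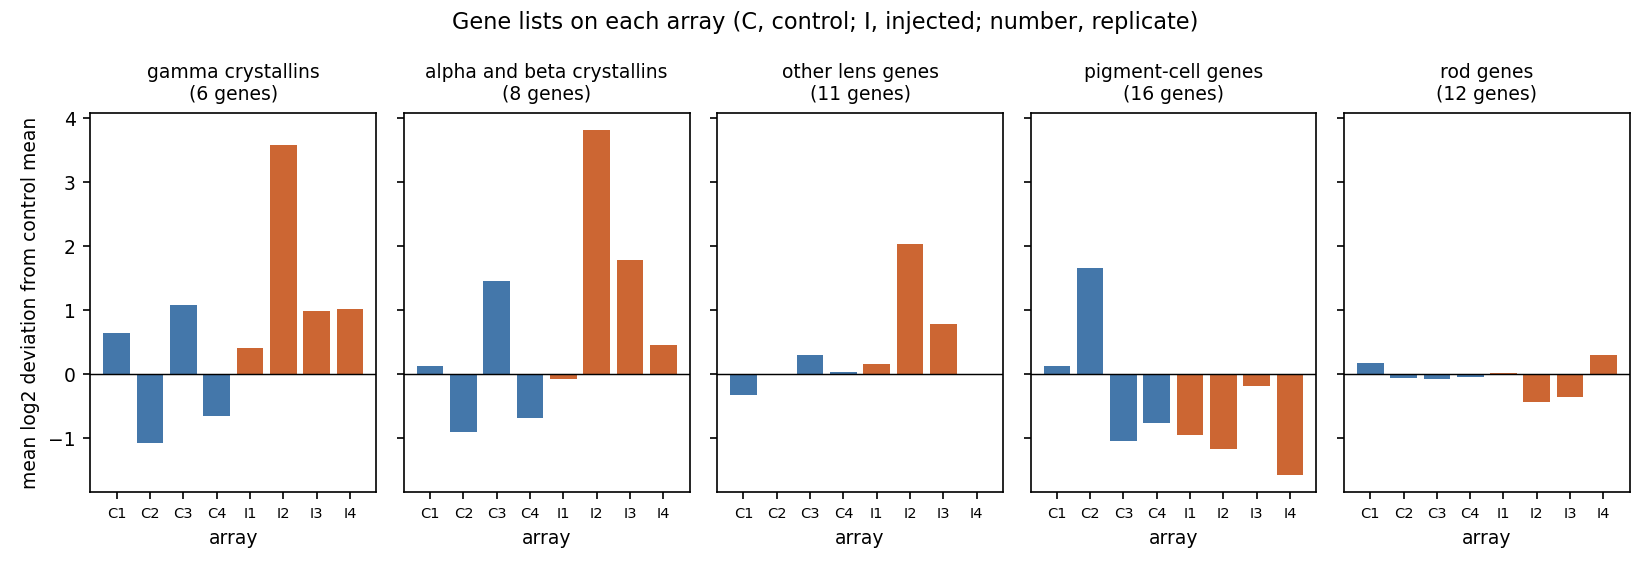
Mean log2 deviation from the control mean on each array for 5 gene lists; bars are single arrays, C for control and I for injected with the replicate number, and the number of measured genes is above each panel. Injected replicate 2 reaches 3.57 for gamma crystallins, 3.81 for alpha and beta crystallins and 2.04 for the other lens genes, while pigment-cell genes peak on control replicate 2. The mean of the rod genes stays within 0.44 of 0. Of the 12 rod genes, 10 had a negative and 2 a positive difference, with a median of -0.29. That mean includes Prph2, read at dim signal, with a difference of 1.78.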

How the data were processed

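The deposited table holds 1 linear intensity per probe set and array for 45101 probe sets. Its mean after trimming 2% at each end is 2500 on every array, as a common scaling by the authors gives; which software was used is not given in the sources used here. After 64 array controls were left out, intensities were quantile-normalised (limma 3.58.1, R 4.3.3), because array medians differed by up to 1.55 times, and taken as log2(intensity + 16). All 45037 probe sets were fitted with lmFit and eBayes and adjusted by Benjamini-Hochberg (threshold 0.05). No filter was used, since a filter on mean signal could keep a member through 1 high sample. Of these probe sets 34945 had 1 gene symbol, 932 several and 9160 none. Each gene was represented by the probe set of highest mean signal. Single genes were also tested by exact permutation over 70 assignments. Members, lists, motifs and rules were chosen with earlier results of these data known. All members were named, and genes of like pattern were the 10 with the highest r. The fit was checked on simulated data. Promoters are from RefSeq (GRCm38.p6), aligned with Biopython 1.88; figures used matplotlib 3.10.9.

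Alternatives were pseudocounts of 1 and 64, the deposited scaling, median centring, a filter at the 40th percentile, a trended robust prior, array weights (statmod 1.5.0), an unmoderated test, a replicate block, 1 probe set per gene, other choices of probe set, and leaving out each sample in turn, with the rest normalised again. The number of arrays limits precision, and detection calls were not used.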

Additional observations from a re-analysis of the deposited data

Results flagged for a closer look

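Cryga in control replicate 1 had a log2 value of 8.78, far from the next control at 6.67: this gap was 84.5% of the range of the 4 controls, past Dixon's 95% critical value. It was the single such value in 18 groups of 4 examined, and chance gives about 1 in 20 groups. Without that sample the log2 difference of Cryga was 1.26 in place of 0.68.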

How the results depend on the processing

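The differences of Crygd, Crygf and Crygs kept their sign in all 19 alternatives, and in none did any of the 6 genes pass the adjusted threshold. The filter, the trended prior, the unmoderated test, the replicate block and 1 probe set per gene cannot change a difference, only its p-value. In those alternatives the sign was fixed beforehand. The range over leaving out 1 sample was 0.19 to 1.26 for Cryga, 0.32 to 1.79 for Crygb, 1.65 to 3.05 for Crygd, 1.61 to 2.37 for Crygf, -0.94 to 0.34 for Crygn and 1.65 to 4.16 for Crygs. The median of the 6 genes ran from 0.97 to 2.08 over these, and from 1.56 to 1.84 over scalings and pseudocounts; it was 1.22 without the x_at probe set of Crygf. Without control replicate 2 and injected replicate 2 together it was 0.30, Cryga was at -0.063 and Crygb at -0.33. Crygn was at 0.14 with array weights and 0.34 without control replicate 2. The median of lens genes other than crystallins ran from -0.14 (without injected replicate 2) to 0.73 (without injected replicate 4), was 0.72 without injected replicate 1 and 0.16 without both samples. That of alpha and beta crystallins ran from 0.44 to 1.74 over leaving out 1 sample and was 0.41 without both. Over all probe sets, 2 were higher with a trended robust prior, 1 was lower with array weights and 1 was lower with 1 probe set per gene, against 0 in each direction otherwise; the cause was not tested. With the replicate block, limma made 0 calls higher and 0 lower, and Crygf had an adjusted p of 0.807. Same-numbered arrays share only a number: their deviations correlated at -0.01 to 0.04, and 2 of 8 arrays correlated best with their own number.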

Other observations

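Transcription factors of lens development were read for 12 of 13 listed genes, 8 with positive and 4 with negative differences, and a median of 0.08. Gata3, a factor of lens fibre differentiation, had the smallest unadjusted p of the 12 (limma). Its log2 values were 5.69, 5.73, 5.46 and 5.03 in control and 7.19, 7.50, 8.40 and 6.38 in injected replicates 1 to 4. Gata3 was the 1 gene of the 12 whose groups did not overlap. All injected samples lay above all controls at 2.18% of all probe sets. Its difference was 1.88 ± 0.42 (SE; limma, adjusted p = 0.523), at signal below the mark of dim signal on every array. Pitx3, a homeobox factor of the lens, differed by 1.30 ± 0.45 (adjusted p = 0.756) at similarly dim signal. Maf, which activates crystallin genes in the lens, differed by 0.46 ± 0.36 (adjusted p = 0.846), and Pax6 and Prox1, made by retinal neurons and glia as well as by lens, by -0.38 and -0.32.

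Crystallin-named genes outside the lens families, among them the enzymes or enzyme-like proteins Cryz and Cryl1, had a median difference of 0.16 over 7 genes. Their list mean ran from -0.23 to 0.28 around the control mean in control samples and from -0.50 to 0.43 in injected samples, the highest in injected replicate 2. Crym, a thyroid hormone-binding protein of Müller glia, had log2 values of 13.51 to 13.66 in control and 13.76 to 14.25 in injected samples, a difference of 0.42 ± 0.20 (SE; limma, adjusted p = 0.825).

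Probe set 1422674_s_at, annotated to Crygc and Crygb together, had log2 values of 8.69, 6.31, 9.06 and 5.89 in control and 8.13, 11.78, 9.45 and 5.66 in injected replicates 1 to 4, highest again on injected replicate 2. Probe set 1454333_at, annotated to Cryga and its neighbour D630023F18Rik, had 5.31, 5.87, 7.84 and 6.97 in control and 8.79, 6.67, 9.41 and 7.62 in injected replicates 1 to 4, and did not have its maximum on that array. Neither signal can be given to 1 gene.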
